A study of Mus musculus with 2 samples.

Results

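Tumor-infiltrating immune cells (TIIs), profiled cell by cell as RNA, were examined for 8 genes of T cell inhibition, namely the inhibitory receptors Pdcd1, Lag3, Havcr2, Tigit, Cd160 and Cd244, the ectoenzyme gene Entpd1 and the transcription factor gene Tox. The genes were chosen by name, as 8 of the 17232 genes of the expression table. They were followed across T cells, NK cells and myeloid classes of both libraries.

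Inhibitory receptors appear on activated T cells and restrain signalling through the T cell receptor and its co-receptors. In tumors, where antigen persists, T cells can carry several of these receptors at once, a state known as exhaustion, and the nuclear protein Tox is required to set up and keep that state. The receptors are not limited to T cells. Havcr2 (TIM-3) is known in macrophages and dendritic cells, Cd244 (2B4) and Cd160 in NK cells, and Entpd1 (CD39), which degrades extracellular ATP, in regulatory T cells and macrophages.

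The cells came from subcutaneous B16-OVA melanoma, a mouse tumor line that carries ovalbumin, at day 14 after tumor challenge. One group of hosts was Maoa WT and the other Maoa KO, the latter carrying the hypomorphic allele 129S-Maoa tm1Shih/J, backcrossed for more than 9 generations to C57BL/6J. Mice were females of 8 to 12 weeks where nothing else was stated. The study asked how monoamine oxidase A in immune cells bears on tumor immunity, and the comparison here was between the libraries of both genotypes. In each group 10 tumors were combined, and 10000 sorted CD45.2+ cells that excluded DAPI were loaded for 1 library. Each genotype thus had 1 library and no replicate, and no test between genotypes was possible. All intervals below are at 95% and cover counting error only, not the spread between mice. Those of CPM and of log2 ratios rest on summed UMIs and also leave out the spread between cells. The allele is a hypomorph in all cells of the host, so a difference between libraries cannot be assigned to 1 cell type.

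The library labelled WT held 2392 cells with 28801253 unique molecular identifiers (UMIs), and the library labelled KO 2630 cells with 23702018 UMIs. The Maoa transcript did not bear out the labels, with 7 UMIs from 6 cells labelled WT and 15 UMIs from 14 cells labelled KO. Whether its 3′ tag lies outside the altered stretch of the allele is not given in the sources used here. Between the libraries, 13 barcode sequences were shared. Where a pair of values is given below, the library labelled WT comes first and the library labelled KO second. Clustering without the 8 genes gave 1026 and 1098 T cells, 178 and 264 NK cells, 968 and 831 tumor-associated macrophages and monocytes (TAM/Mono), 135 and 301 dendritic cells (DC), 48 and 70 plasmacytoid dendritic cells (pDC) and 7 and 24 B cells, the last too few to describe. A cycling cluster of 30 and 42 cells with mixed markers stayed unnamed. T cells had Cd3e at 501 and 498 CPM, where CPM is UMIs per 1000000 UMIs of the class. By the rule given below, 0 of 11 T cell markers were called in either direction. The class was named from these markers, so the values are no check of its label. The median T cell had 9741 and 4795.5 UMIs. Each cell was therefore thinned to 3000 UMIs before shares of cells were taken, which left out 0 and 30 shallower T cells. Of the T cells, 30.8% and 14.7% held at least 3 UMIs of CD3 genes together with at least 5 UMIs of 8 myeloid genes, and these possible doublets were kept in the values below unless stated.

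Pdcd1 encodes PD-1, which binds PD-L1 and PD-L2 and recruits phosphatases to the T cell receptor. It lies at chr1:94038305-94052553 (GRCm38, minus strand). In T cells Pdcd1 stood at 367 CPM (interval 357 to 378) and 224 CPM (214 to 235), and the intervals did not overlap. The other classes were far lower. In the library labelled WT, DC had 42.9 CPM, NK cells 28.3, pDC 13.5 and TAM/Mono cells 12.5, and the intervals of DC and NK cells overlapped, as did those of NK cells, pDC and TAM/Mono cells, but for NK against TAM/Mono. After thinning, 46.1% and 25.5% of T cells had a Pdcd1 UMI, against 2.69% and 1.33% of TAM/Mono cells.

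Lag3, at chr6:124904361-124911705 (minus strand), encodes a CD4-like receptor that binds MHC class II. Over whole classes, Lag3 did not peak in T cells, although T cell clusters described below reached the level of pDC. Among the classes pDC had the most, at 525 CPM (454 to 605) and 497 CPM (438 to 563). T cells followed at 307 CPM (297 to 317) and 235 CPM (225 to 246). DC had 72.5 and 41.2 CPM, NK cells 46.5 and 32.9, and TAM/Mono cells 22.3 and 8.15. Among thinned pDC, 77.1% and 70.0% had a Lag3 UMI. The pDC had few T cell transcripts. Their T cell markers summed to 226 and 254 CPM, against 4522 and 4589 CPM in T cells. Their Cd3e was at 29.6 and 17.8 CPM, and per 100 Cd3e UMIs they gave 1773 and 2789 Lag3 UMIs, against 61.2 and 47.3 in T cells.

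Havcr2, at chr11:46454935-46481255 (plus strand), encodes TIM-3, a receptor for galectin-9 and other ligands. T cells had the highest level, with 76.8 CPM (72.1 to 81.7) and 44.4 CPM (39.9 to 49.2). TAM/Mono cells followed with 41.6 CPM (38.0 to 45.5) and 28.9 CPM (25.5 to 32.7), then DC with 19.2 and 17.3 CPM, and these 3 classes did not overlap within a library. NK cells held only 5 and 2 UMIs of Havcr2.

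Tigit encodes a receptor for the poliovirus receptor family and lies at chr16:43648867-43664146 (minus strand). It was thinly sampled, with 111 and 49 UMIs in T cells, or 8.60 CPM (7.07 to 10.4) and 6.07 CPM (4.49 to 8.03). NK cells of the library labelled WT had 8.21 CPM from 9 UMIs, which could not be told from the T cell level. In thinned T cells, 3.02% and 2.25% had a Tigit UMI.

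Cd160, a receptor for herpesvirus entry mediator at chr3:96798763-96829351 (minus strand), and Cd244, a receptor for CD48 at chr1:171559193-171609746 (plus strand; annotated as Cd244a), were shared with NK cells. Cd160 stood at 73.5 CPM (68.9 to 78.4) and 80.3 CPM (74.2 to 86.7) in T cells and at 85.8 CPM (69.3 to 105) and 128 CPM (109 to 150) in NK cells. The intervals of T cells and NK cells overlapped in the library labelled WT and not in the library labelled KO. Cd244 was highest in NK cells, at 98.5 CPM (80.8 to 119) and 97.9 CPM (81.1 to 117). It reached 39.4 and 46.9 CPM in TAM/Mono cells and 37.0 and 38.0 CPM in DC, whose intervals overlapped, and only 17.0 CPM (14.8 to 19.4) and 13.4 CPM (10.98 to 16.2) in T cells.

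Tox, at chr4:6686353-6991557 (minus strand), was highest in T cells, at 156 CPM (150 to 163) and 110 CPM (103 to 118), against 35.6 and 23.9 CPM in NK cells, 15.8 and 6.65 in DC and 5.97 and 2.34 in TAM/Mono cells. Entpd1, at chr19:40612366-40741602 (plus strand), was highest in TAM/Mono cells among the classes, at 45.8 CPM (41.99 to 49.8) and 34.1 CPM (30.3 to 38.1). In T cells it had 29.8 CPM (26.9 to 33.0) and 21.8 CPM (18.7 to 25.3), and these intervals overlapped those of DC (22.7 and 15.5 CPM). These levels count 3′ ends and are not divided by gene length, so they were compared between classes and not between genes.

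**Figure D1:**
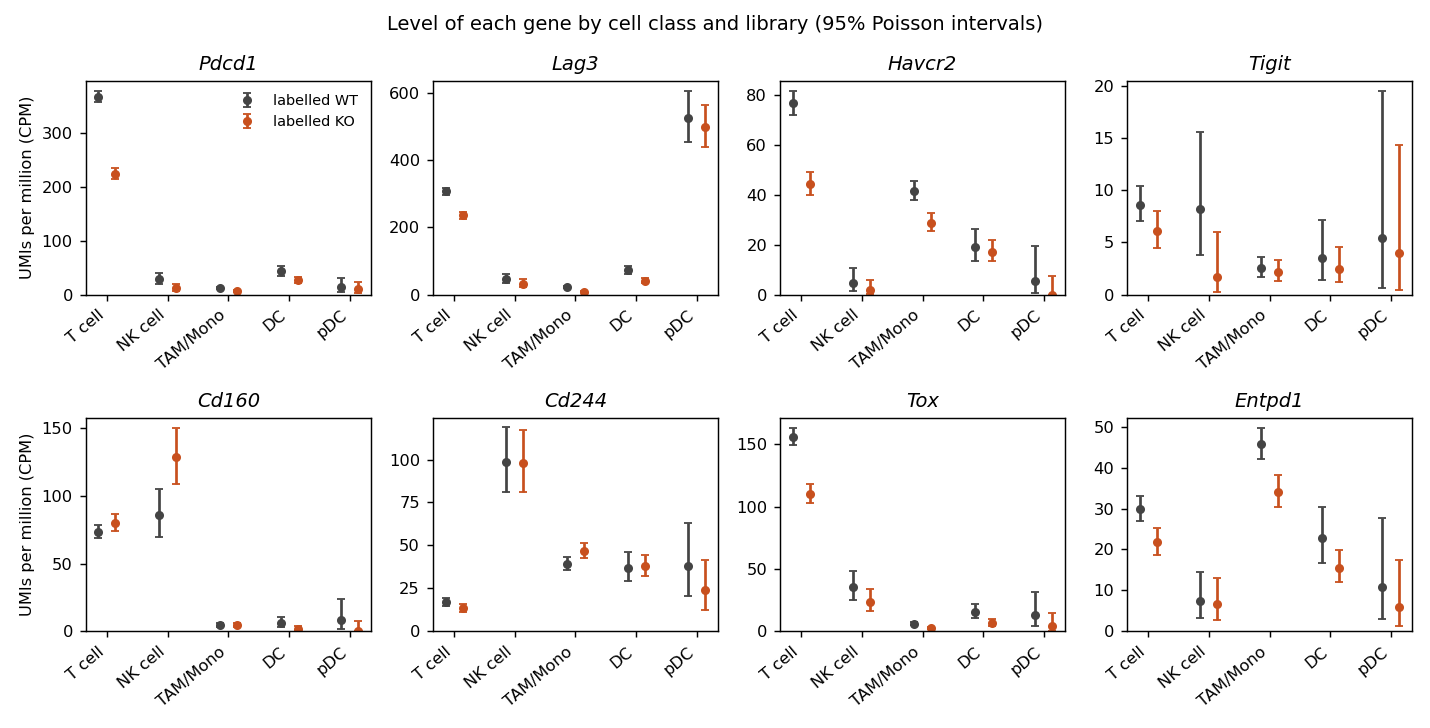
CPM (UMIs per 1000000 UMIs of the class, vertical axis) of each gene in 5 cell classes, as points with 95% Poisson intervals, for the library labelled WT (grey) and the library labelled KO (orange). Pdcd1 and Tox are highest in T cells, Lag3 in pDC (525 and 497 CPM), Cd160 and Cd244 in NK cells and Entpd1 in TAM/Mono cells (45.8 and 34.1 CPM).

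In T cells, 7 of the 8 genes were lower in the library labelled KO and Cd160 was slightly higher. The log2 ratio of the library labelled KO to that labelled WT was -0.71 (-0.79 to -0.63) for Pdcd1 and -0.79 (-0.97 to -0.62) for Havcr2, which were 1.64-fold and 1.73-fold lower. The other log2 ratios were -0.38 for Lag3, -0.50 for Tox, -0.50 for Tigit, -0.45 for Entpd1 and -0.34 for Cd244, each with an interval below 0, for Tigit and Cd244 only just, and 0.13 (-0.02 to 0.27) for Cd160. With a call at 1.5-fold and at least 100 UMIs over both libraries, all 8 genes could be called, 2 of them were lower and 0 higher. Of 8478 genes in T cells, 7.47% were called lower and 4.78% higher. The median log2 ratio of the 8 genes was -0.48, that of all genes -0.07, and Cd3e was at -0.01. The median of all genes was thus also below 0, and the share of all genes with an interval below 0 was not counted. Without the possible doublets, 4 of the 8 were called lower (Pdcd1, Lag3, Havcr2 and Tox) against 7.66% of 6877 genes, and the ratio of Lag3 went from -0.38 to -0.77. The possible doublets were the deeper cells, with a median of 19504 and 15464 UMIs against 6737 and 4483 in the other T cells, so leaving them out also left out deep cells, and a larger share of them in the library labelled WT. Weighting cells equally called 6 lower (all but Cd160 and Cd244, against 10.9% of genes). Summed TAM markers in T cells were at 259 and 255 CPM, with 1 of 10 tested genes called lower and 2 higher, and 5 melanoma markers were at 101 and 153 CPM. Their part in the result was not tested. Fewer T cells of a kind and less RNA per cell cannot be told apart in these sums over T cells, which is why the T cells were divided further.

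Pdcd1 and Havcr2 were the genes called lower, whereas Cd160 was not, and their promoters are shown for comparison. The RefSeq table (GRCm38.p6) held 8 windows for 6 of the 8 genes, and Lag3 and Tox were not among them. Each sequence is the 250 bases before the annotated start, read 5′ to 3′ on the strand of the gene, and the capitals mark every match to 6 motifs searched on both strands. The motifs were the NFAT core GGAAAA (in 20.4% of 32851 promoter windows of that length), AP-1 TGANTCA (6.75%), RUNX TGTGGT (14.05%), T-box GGTGTGA (3.33%), TCF1 CTTTGAT (3.21%) and NR4A AAAGGTCA (1.34%).
Pdcd1, chr1:94052554-94052803, minus strand: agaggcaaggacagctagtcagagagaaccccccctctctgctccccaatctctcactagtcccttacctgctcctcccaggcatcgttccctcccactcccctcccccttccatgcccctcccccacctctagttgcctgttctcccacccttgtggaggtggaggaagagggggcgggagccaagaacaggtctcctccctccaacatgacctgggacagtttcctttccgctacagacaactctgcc
Havcr2, chr11:46454681-46454930, plus strand: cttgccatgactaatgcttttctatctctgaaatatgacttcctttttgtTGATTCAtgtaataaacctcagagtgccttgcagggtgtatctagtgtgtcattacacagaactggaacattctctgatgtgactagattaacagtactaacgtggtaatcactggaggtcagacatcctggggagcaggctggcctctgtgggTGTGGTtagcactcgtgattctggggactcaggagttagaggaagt
Cd160, chr3:96829352-96829601, minus strand: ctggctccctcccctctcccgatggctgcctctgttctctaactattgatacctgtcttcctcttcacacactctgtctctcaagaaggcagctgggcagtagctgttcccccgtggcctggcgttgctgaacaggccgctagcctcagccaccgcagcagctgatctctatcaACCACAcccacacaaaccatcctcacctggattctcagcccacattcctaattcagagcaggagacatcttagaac
The Pdcd1 window had none of these letters. The Havcr2 window held 1 AP-1 match, which reads as AP-1 on either strand, at 200 to 194 bases before the start and 1 RUNX match at 46 to 41 bases before it. This Cd160 window held 1 RUNX match on the opposite strand, 76 to 71 bases before the start. The other Cd160 window, at chr3:96814522-96814771, held 1 RUNX match at 101 to 96 bases and 1 T-box match at 189 to 183 bases before its start, both on the strand of the gene. Among genes that were not called and are not printed, Cd244 held an AP-1 match at 122 to 116 bases before its start. Tigit held a RUNX and an NFAT core match, and the Entpd1 window at chr19:40659520-40659769 an NFAT core match. A match describes letters, and no binding was measured. The GC content was 60.4% for Pdcd1, 44.8% for Havcr2 and 55.2% for Cd160.

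Clustering the T cells again without the 8 genes gave 10 clusters, numbered from 0 to 9. Cluster 0 was led by the naive-like genes Dapl1 and Lef1, cluster 1 by Klra7, cluster 3 by Xcl1 and Cd40lg, cluster 6 by Foxp3 and Ikzf2 (regulatory T cell-like), cluster 7 by the interferon-response genes Ifit3 and Isg15, and cluster 4 by cell cycle genes. Cluster 2 was led by Nrn1, Ccl3 and Nr4a2, cluster 5 by Gzmk and Ccl5, and cluster 8 by the granzyme genes Gzmd and Gzmf. Clusters 0, 1, 2, 4, 5, 7 and 8 were Cd8a-high, with over 10 times as much Cd8a as Cd4. The 22 cells of cluster 9 were led by melanoma and myeloid genes such as Dct and C1qc.

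The 8 genes were unevenly spread over these clusters. Cluster 2 had the most Lag3, at 526 CPM (501 to 552) and 632 CPM (589 to 677), and the most Pdcd1, at 509 CPM (484 to 534) and 458 CPM (421 to 496). Cluster 5 was close to it, with 479 and 436 CPM of Pdcd1, whose intervals overlapped those of cluster 2, and with 570 CPM of Lag3 (509 to 636) in the library labelled KO, which overlapped as well. The 456 CPM of Pdcd1 in cluster 8 of the library labelled WT (418 to 497) also overlapped cluster 2. The Lag3 interval of cluster 2 overlapped that of pDC in the library labelled WT and lay above that of pDC (438 to 563) in the library labelled KO. Tox was at 244 and 243 CPM in cluster 2 and at 203 and 244 CPM in cluster 5. The naive-like cluster 0 had the lowest levels of the inhibitory receptors Pdcd1, Lag3 and Havcr2 in the library labelled WT and was also low in the library labelled KO, with Pdcd1 at 29.6 and 13.6 CPM, Lag3 at 25.6 and 16.9 and Havcr2 at 4.04 and 3.39 CPM from 3 and 5 UMIs.

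Havcr2, Cd160, Tigit and Entpd1 were also high in other clusters. Havcr2 in the library labelled WT was highest in the granzyme cluster 8, at 167 CPM (144 to 192) in 47 cells, where Tox was at 95.1 CPM. In the library labelled KO that cluster had 11 cells and 97.3 CPM of Havcr2 (65.1 to 140), which overlapped the 113 CPM of cluster 2. Cd160 was at 110 and 135 CPM in cluster 1, where Havcr2 was at 43.5 and 5.14 CPM. Its interval there overlapped those of cluster 2 (88.8 and 105 CPM) and cluster 5 (98.1 and 133 CPM) in both libraries. In the library labelled WT it also overlapped those of cluster 3 (83.1 CPM) and of the interferon cluster 7 (119 CPM, from 34 UMIs), so no cluster stood apart as the highest in Cd160. Tigit was highest in the Foxp3 cluster 6, at 18.5 and 20.9 CPM from 12 and 11 UMIs, with an interval that overlapped that of cluster 2 in each library. In that cluster Cd160 had 22 UMIs in 84 cells labelled WT and 1 UMI in 77 cells labelled KO, a pair of values picked out after they were seen. A single cell held 13 of the 22 UMIs, and after thinning 4 of 84 and 1 of 76 cells had a Cd160 UMI. Entpd1 was at 46.2 and 39.8 CPM in cluster 6, and the intervals of clusters 2, 5, 6 and 8 overlapped in the library labelled WT. In the library labelled KO it was at 68.1 CPM (48.2 to 93.5) in cluster 5 and at 67.1 CPM in cluster 8. Both intervals lay above that of TAM/Mono cells (30.3 to 38.1). The interval of cluster 5 did not overlap the 35.3 CPM (25.8 to 47.3) of cluster 2. The shares of thinned cells with an Entpd1 UMI did overlap, at 18.9% (11.6 to 28.3) in cluster 5 and 9.40% (4.79 to 16.2) in cluster 2.

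**Figure D2:**
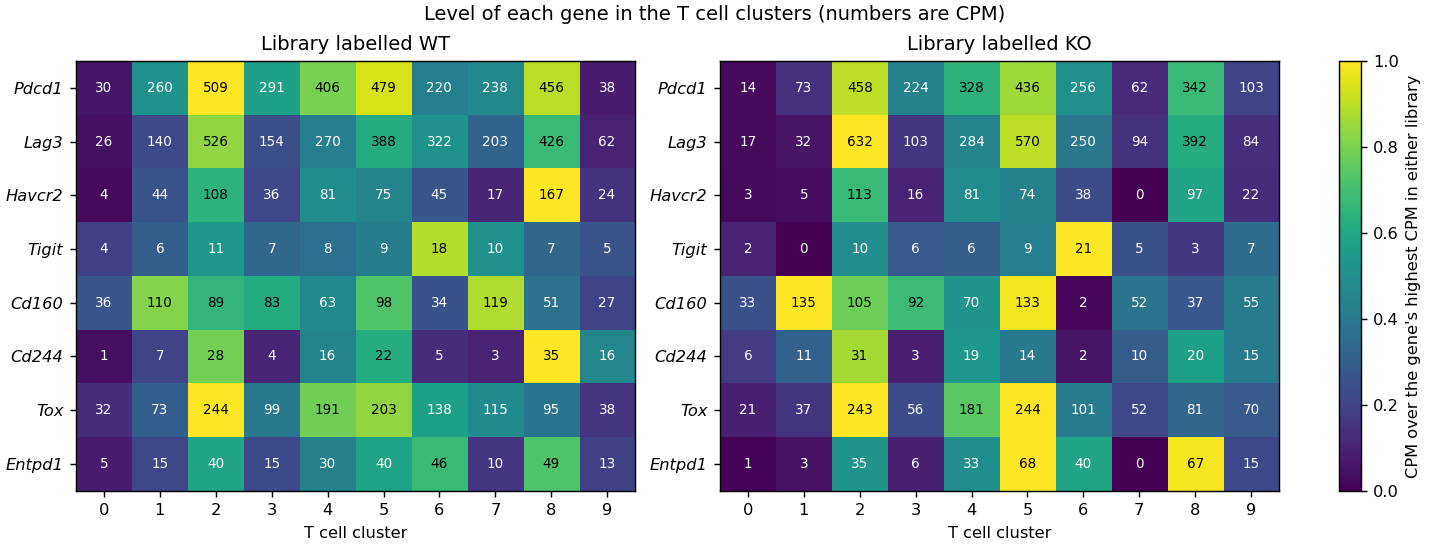
CPM of each gene (rows) in the 10 T cell clusters (columns), printed as numbers, for the library labelled WT (left) and that labelled KO (right). Colour gives the CPM divided by the highest CPM of the gene in either library. Pdcd1, Lag3 and Tox are bright in clusters 2 and 5 and dark in cluster 0, Cd160 is bright in clusters 1 and 5, and Tigit in cluster 6. Cluster 8 has 11 cells in the library labelled KO.

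The libraries held these clusters in different shares. Cluster 2 made up 24.2% (21.6 to 26.9) and 10.7% (8.98 to 12.7) of T cells, and the cycling cluster 4 made up 17.1% and 5.74%. Clusters 0 and 1 went the other way, with 12.1% and 24.9% for cluster 0 and 10.3% and 25.5% for cluster 1. With 1 library per genotype, whether these shares differ between mice was not tested.

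Levels were then compared between libraries within each cluster. In cluster 2 the median log2 ratio of the 8 genes was 0.03, and 0 of the 7 genes that could be called passed 1.5-fold, where 4.52% of 4001 genes were called lower and 2.35% higher. Lag3 was at 0.27 (0.14 to 0.39), Pdcd1 at -0.15 (-0.29 to -0.01) and Tox at 0.00 in that cluster. In the cycling cluster 4 the median was 0.04, with 0 of 6 called against 4.71% lower and 2.32% higher of 4270 genes, although Pdcd1 was at -0.31 (-0.48 to -0.14). In cluster 5, 0 of 4 were called (8.21% lower and 4.07% higher), with Lag3 at 0.56 (0.32 to 0.80), while Entpd1, under the minimum with 27 and 38 UMIs, was at 0.79 (0.04 to 1.55). In cluster 1, Pdcd1, Lag3 and Tox were called lower out of 4, but 25.6% of 2578 genes were called lower there and 6.48% higher. In cluster 3, Tox was 1 of 4 called lower (6.16% of genes lower, 3.16% higher), and in cluster 8 Havcr2 was 1 of 4 (8.09% lower, 3.19% higher). In the Foxp3 cluster 6, 0 of 3 were called (3.64% lower and 2.12% higher). No member reached 100 UMIs in cluster 0, where 3.41% of genes were lower and 3.09% higher, or in cluster 7, where 9.3% were lower and 3.49% higher.

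When both libraries were given the same mix of clusters (each of the 10 clusters weighted by its share of T cell UMIs over both libraries), the log2 ratios of all genes but Cd160 were nearer to 0. Pdcd1 stood at -0.33, Havcr2 at -0.27, Tigit at -0.33, Tox at -0.15, Entpd1 at -0.04, Lag3 at 0.04, Cd244 at 0.04 and Cd160 at 0.14. None of the 8 was then past 1.5-fold, where 3.82% of 8478 genes were lower and 2.67% higher. The median of the 8 was -0.093 in place of -0.48, and that of all genes -0.02 in place of -0.07.

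**Figure D3:**
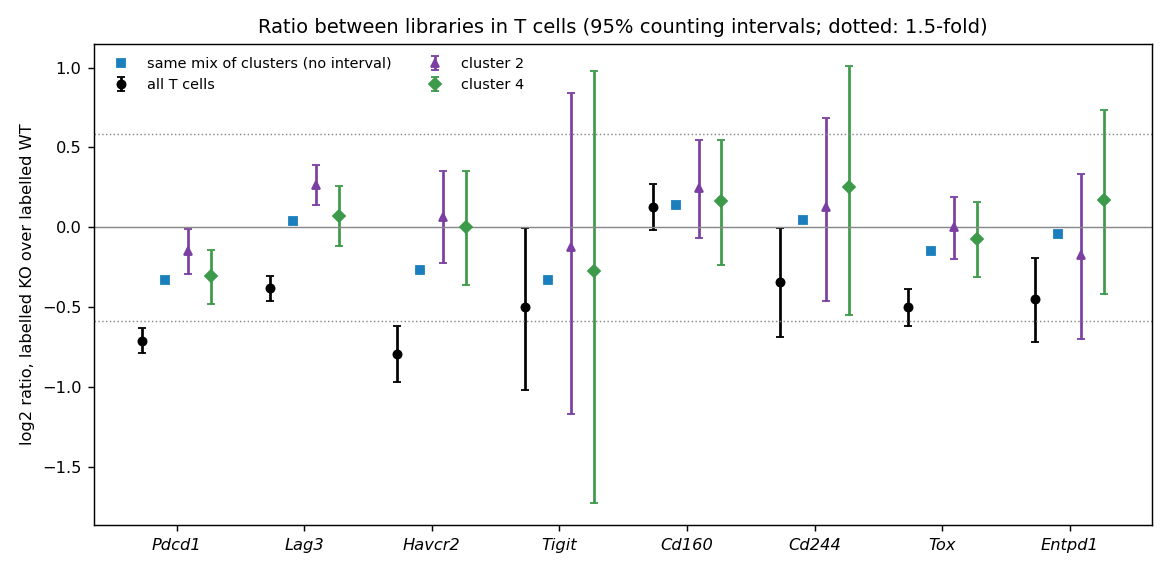
Log2 ratio of the library labelled KO to that labelled WT (vertical axis) for each gene in all T cells (black), at the same mix of clusters (blue, no interval), in cluster 2 (purple) and in the cycling cluster 4 (green). Bars are 95% counting intervals and dotted lines mark 1.5-fold. Over all T cells Pdcd1 and Havcr2 lie below the lower dotted line, and at the same mix none does.

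Coexpression was then followed cell by cell. In thinned T cells, the number of cells with both genes of a pair was divided by the number expected from the share of each gene. Of 28 pairs, 23 (labelled WT) and 20 (labelled KO) had at least 5 expected cells, and 20 and 19 of these were found together more often than expected. The median observed over expected was 1.35 in the library labelled WT and 1.99 in that labelled KO. Cd3e, taken as a reference partner for each of the 8 genes, had a median of 1.06 and 1.197. A second random thinning gave a median over pairs of 1.34 and 1.68, so the value of the library labelled KO moved with the cells' drawn UMIs. Observed over expected cannot exceed 1 over the share of the more frequent gene, and Pdcd1 was in 46.1% and 25.5% of thinned T cells. The bound is therefore lower in the library labelled WT, and the ratios of both libraries cannot be ranked against each other.

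Pdcd1 and Lag3 occurred together in 282 cells labelled WT where 199.6 were expected and in 153 cells labelled KO where 62.7 were expected, with odds ratios of 3.93 and 9.72. Lag3 and Havcr2 gave 104 cells against 65.4 expected and 59 cells against 17.7 expected, ratios of 1.59 and 3.33. The latter was the highest of the library labelled KO among pairs with at least 5 expected cells. Pdcd1 and Tox were found together in 202 cells (146 expected) and 97 cells (45.8 expected). Havcr2 and Entpd1 had the highest ratio of the library labelled WT among pairs with at least 5 expected cells, 1.63, from 19 cells.

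Cd160 stood apart. With Pdcd1 it reached 1.17 and 1.08 times the expected number, with Lag3 1.06 and 1.14 and with Havcr2 0.88 and 1.04, beside the Cd3e reference. Among pairs with at least 5 expected cells, Cd160 and Entpd1 were the lowest in both libraries. They had 6 cells against 11.9 expected and 8 against 9.23. Tigit with Pdcd1 was at 0.77 and 2.13, from 11 and 13 cells, too few to read an order from.

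Part of this pairing lay between clusters. With odds ratios pooled within T cell clusters, the median over pairs went from 1.96 to 1.21 in the library labelled WT and from 3.17 to 1.41 in that labelled KO. Of the pairs with at least 5 expected cells, 17 of 23 (labelled WT) and 12 of 20 (labelled KO) were above 1 within clusters. Within clusters the odds ratio of Pdcd1 and Lag3 was 1.84 and 2.51, in place of 3.93 and 9.72. That of Lag3 and Havcr2 was 1.56 and 3.42, in place of 3.36 and 14.1, and that of Pdcd1 and Tox 1.81 and 2.24, in place of 2.84 and 4.76. Cells with more RNA of 1 gene after thinning share the same library and depth, so these ratios are a description.

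**Figure D4:**
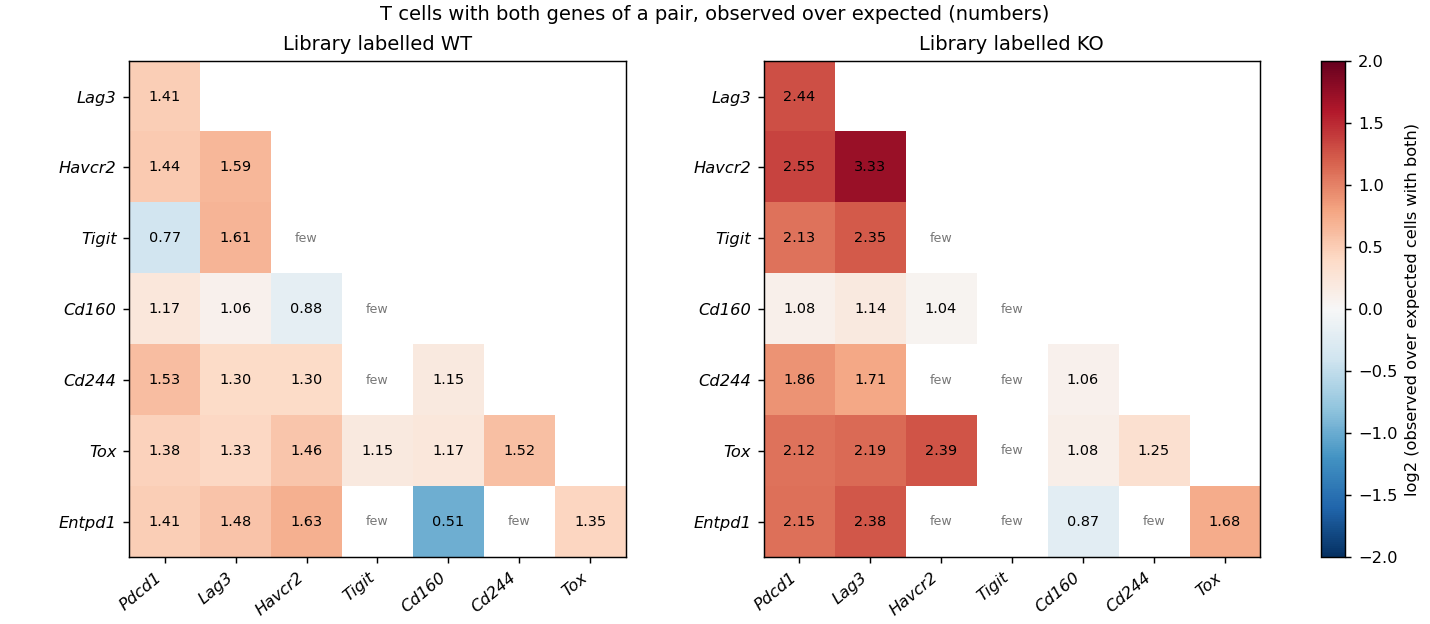
Observed over expected number of thinned T cells with both genes of a pair (numbers; colour is its log2), for the library labelled WT (left) and that labelled KO (right). Pairs with under 5 expected cells are marked few. Pairs among Pdcd1, Lag3, Havcr2 and Tox lie at 1.33 to 1.59 on the left and at 2.12 to 3.33 on the right, and Cd160 with Entpd1 lies below 1 in both.

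A cell with several of the 8 genes was most common among T cells. At 3000 UMIs, 285 of 1026 T cells (27.8%, 25.1 to 30.6) and 158 of 1068 (14.8%, 12.7 to 17.1) had a UMI of at least 3 of the 8 genes. No member was seen in 25.3% and 46.9%. Among NK cells 3.93% and 2.73% reached 3 genes, among DC 2.22% and 0.33%, and among TAM/Mono cells 1.14% and 0.36%. Within cluster 2 the share was 54.8% (48.4 to 61.1) and 59.8% (50.4 to 68.8), within cluster 4 31.4% and 30.2%, within cluster 5 36.6% and 38.9% and within the Foxp3 cluster 6 20.2% and 14.5%, with overlapping intervals in each. In cluster 0 it was 0.81% and 0.38%, 1 cell in each library. Cluster 1 held 11.3% (5.99 to 18.9) and 1.85% (0.60 to 4.25), intervals that did not overlap.

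**Figure D5:**
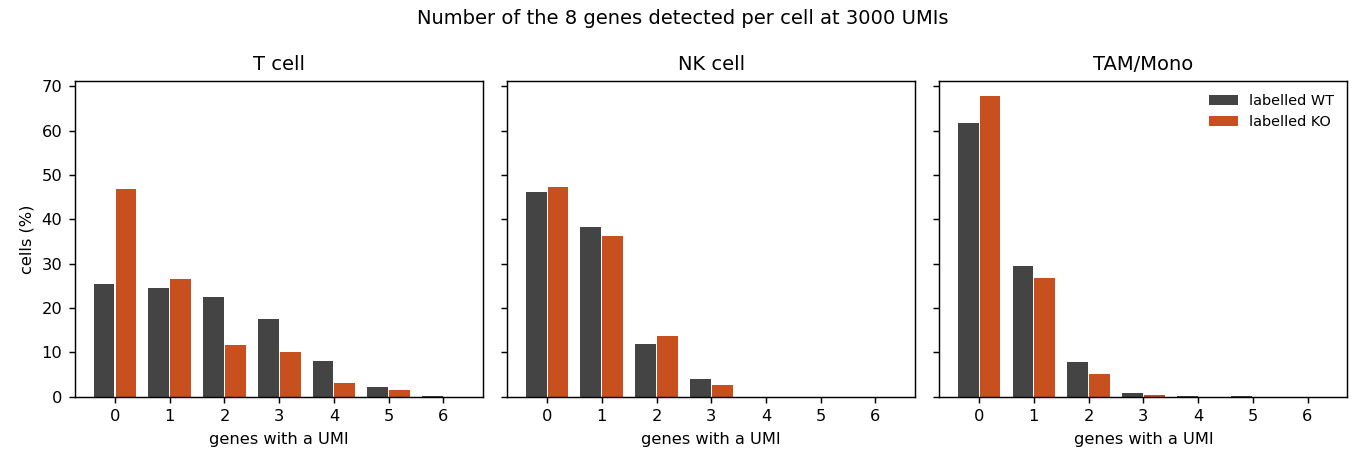
Percent of cells (vertical axis) by the number of the 8 genes with a UMI at 3000 UMIs per cell, for T cells, NK cells and TAM/Mono cells of the library labelled WT (grey) and that labelled KO (orange). T cells with none of the genes make up 25.3% and 46.9%, and T cells reach up to 6 genes while NK cells reach 3.

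Over T cells, the genes whose UMI share was most like that of a member were named by the lower Pearson r of both libraries, among 1800 genes, in 1026 and 1098 cells that differ in depth. Lag3 and Pdcd1 were each other's nearest gene, at r = 0.54. Next to Pdcd1 came Lgals1 (0.49), the gene of galectin-1, and Bcl2a1d (0.49), an anti-apoptotic BCL2 relative. Next to Lag3 came Tnfrsf9 (0.53), the costimulatory receptor 4-1BB, and Pglyrp1 (0.52), a peptidoglycan recognition protein. Havcr2 was nearest to Lag3 (0.47), Bcl2a1d and Pdcd1, and Tox to Lag3 (0.48), Pdcd1 (0.47) and Nkg7 (0.37), a cytotoxic granule protein. Cd160 was nearest to Xcl1 (0.31), a chemokine for cross-presenting DC, Cd7 and Nkg7, and Entpd1 to Lgals1 (0.30), Gzmb and Gapdh. Tigit (nearest Bcl2a1b, Lag3 and Srgn) and Cd244 (nearest Lag3, Plek and Anxa2) had no gene above 0.18, which is no finding in counts this sparse.

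In NK cells only Cd160 and Cd244 reached 100 UMIs, and 0 of these 2 were called, where 4.11% of 2530 genes were lower and 3.36% higher. Cd160 was at 94 and 156 UMIs, a log2 ratio of 0.58 (0.20 to 0.97) just under 1.5-fold (0.23 to 0.64 over the alternatives run, the lowest with 20 principal components), and 14.6% and 26.2% of thinned NK cells had a Cd160 UMI. The ratio of Cd160 passed 1.5-fold with cells weighted equally (0.64), without mitochondrial and ribosomal UMIs (0.60) and, by a small margin, with a median-of-ratios scale. Cd244 was at -0.01 (-0.40 to 0.38). Together, Cd160 and Cd244 occurred in 8 NK cells labelled WT where 6.43 were expected and in 23 labelled KO where 16.8 were expected. Pdcd1 and Lag3, with 31 and 15 and with 51 and 40 UMIs, were below the minimum, and NK cells had Cd3e at 41.97 and 43.6 CPM.

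Among TAM/Mono cells, 5 of the 8 genes could be called, and Pdcd1 (-0.98) and Lag3 (-1.45) were lower, against 4.85% of 8331 genes lower and 4.41% higher. T cell transcripts were also lower. Cd3e was at 28.8 and 19.1 CPM (-0.60), and of the T cell markers 6 of 9 tested were called lower, with a summed level of 317 and 203 CPM and none of the 11 at 0. Per 100 Cd3e UMIs, TAM/Mono cells had 43.4 and 33.3 Pdcd1 UMIs, against 73.2 and 45.0 in T cells, and 77.3 and 42.7 Lag3 UMIs, against 61.2 and 47.3. Without possible doublets, Lag3 stood at 11.1 and 4.13 CPM and Pdcd1 at 8.37 and 4.88 CPM, and Cd3e at 12.02 and 8.89. The log2 ratios were then -1.42 for Lag3, -0.78 for Pdcd1 and -0.44 (-0.89 to 0.01) for Cd3e. Of the T cell markers, 0 of 6 tested were called lower and the sum of all 11 was 124 and 105 CPM. The rule picks cells by their CD3 UMIs, so a fall of T cell markers follows from it and these values do not match T cell RNA between libraries. The part of T cell RNA in these differences was not tested.

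Havcr2, Entpd1 and Cd244 in TAM/Mono cells were not in the proportion seen in T cells. Havcr2 reached 144 and 151 UMIs per 100 Cd3e UMIs, against 15.3 and 8.90 in T cells, and Entpd1 159 and 178, against 5.95 and 4.38. Their log2 ratios were -0.53 (-0.75 to -0.31) for Havcr2, -0.43 (-0.63 to -0.22) for Entpd1 and 0.25 (0.06 to 0.44) for Cd244, none past 1.5-fold. Without possible doublets they were -0.57, -0.46 and 0.20. These cells divided by gene as well. In the monocyte-like cluster led by Hp, Ifitm6 and Chil3, Cd244 was at 119 and 99.6 CPM, and in the macrophage cluster led by C1qa, C1qc and Trem2 it was at 12.1 and 13.9 CPM. Entpd1 showed the reverse, with 31.6 and 12.4 CPM in the former and 51.3 and 51.2 CPM in the latter. The monocyte-like cluster had 155 and 254 cells in the libraries labelled WT and labelled KO, and the part of that share in the sum over TAM/Mono cells was not tested. Havcr2 and Entpd1 were found together in 22 thinned TAM/Mono cells labelled WT (14.2 expected) and in 7 labelled KO (6.61 expected). Cd244 and Entpd1 were together in 12 (16.3 expected) and 9 (11.4 expected).

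In DC, Pdcd1 (-0.66) and Lag3 (-0.82) were called lower out of 5, against 6.82% of 5149 genes lower and 2.35% higher, and Cd3e was at 77.5 and 55.0 CPM with a T cell marker sum of 775 and 595 CPM and 0 of 10 tested T cell markers called lower. Of the markers of other types in DC, 4 of 7 monocyte markers (3506 and 2976 CPM in sum) and 3 of 7 TAM markers (682 and 585 CPM in sum) were called lower and 1 TAM marker higher, and their part was not tested. In the DC cluster led by Cd209a, Pdcd1 was at 38.5 and 19.6 CPM and Lag3 at 75.2 and 38.1 CPM. With 20 principal components, which set apart a cluster led by Xcr1, the Cd209a cluster had Pdcd1 at 27.7 and 23.1 CPM and Lag3 at 88.1 and 48.3 CPM. The Xcr1 cluster, of 23 and 79 cells, had Pdcd1 at 25.8 and 13.6 CPM and Lag3 at 18.8 and 25.7 CPM. In the smaller cluster led by Ccl22 and Fscn1, with 29 and 45 cells, Pdcd1 was at 61.5 and 76.1 CPM and Lag3 at 61.5 and 61.3 CPM. Over the alternatives run Pdcd1 lay between -1.04 and -0.31, the latter with 20 principal components, 1 of 4 alternatives where it was under 1.5-fold. Without possible doublets, which were 27.4% and 20.6% of DC, the values were 20.2 and 13.4 CPM for Pdcd1 and 29.2 and 24.1 CPM for Lag3, under the 100-UMI minimum for Pdcd1 and at -0.27 (-0.86 to 0.33) for Lag3. In pDC, Lag3 was the 1 gene that could be called and was not, at -0.08 (-0.36 to 0.20), where 3.73% of 1181 genes were lower and 3.22% higher. Havcr2 and Cd160 had 2 and 3 UMIs in pDC labelled WT and 0 in those labelled KO, whose floor of 3 counts is 5.94 CPM.

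Of 39 other genes of the checkpoint and exhaustion pathway, 37 could be called in T cells, and 1 was lower and 7 higher (a median log2 ratio of -0.03), where 7.47% of all genes were lower and 4.78% higher. The gene that was lower was Tnfrsf9 (-0.70). The higher ones were Id3 (1.64) and Tcf7 (1.49), transcription factors of memory-like and naive T cells, Nr4a3 (0.80) and Nr4a1 (0.64), which respond to T cell receptor signalling, Ikzf2 (0.73), Nt5e (0.72), the ectoenzyme that acts after CD39, and Nfatc2 (0.63). Tcf7 stood at 25.2 and 70.6 CPM. In cluster 2, 0 of 24 genes of the list were called lower and 1 higher (4.52% and 2.35% of all genes). Cluster 4 had 0 and 1 of 24 (4.71% and 2.32%), and cluster 5 had 1 and 1 of 11 (8.21% and 4.07%). Cluster 0 had 3 and 0 of 12 (3.41% and 3.09%), and cluster 1 had 4 and 3 of 15 (25.6% and 6.48%). Cluster 3 had 4 and 3 of 23 (6.16% and 3.16%), and cluster 6 had 2 and 0 of 14 (3.64% and 2.12%). Cluster 7 had 2 and 0 of 2 (9.3% and 3.49%), and cluster 8 had 1 and 0 of 13 (8.09% and 3.19%). In TAM/Mono cells 11 of 29 were lower and 3 higher (4.85% and 4.41% of all genes), and there 6 of 9 T cell markers were lower as well, whose part was not tested.

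Of 14 ligand genes, 13 were found in the table. In TAM/Mono cells 10 could be called, with 2 lower and 1 higher (4.85% and 4.41% of all genes). The PD-1 ligands were the ones lower, with Cd274 (PD-L1) at 91.0 and 45.6 CPM (-0.998) and Pdcd1lg2 (PD-L2) at 21.2 and 8.15 CPM (-1.38). The TIM-3 ligand Ceacam1 was higher, at 11.9 and 18.8 CPM (0.65), and Lgals9, of galectin-9, stood at 165 and 144 CPM. The TIGIT ligand Pvr was at 18.5 and 24.2 CPM, the 2B4 ligand Cd48 at 169 and 199 CPM, and the MHC class II genes H2-Aa and H2-Ab1, ligands of LAG-3, at 3318 and 2580 and at 3711 and 2992 CPM. Tnfrsf14, which binds CD160, had only 13 and 5 UMIs. In T cells 1 of 9 was lower (Lgals3, -0.79) and 1 higher (Pvr, 0.94), against 7.47% and 4.78% of all genes. In DC 0 of 9 were called, against 6.82% lower and 2.35% higher.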

How the data were processed

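Both genotypes had 1 library each of CD45.2+ TIIs from B16-OVA tumors. The authors made Chromium 3′ V2 libraries, sequenced them on a NovaSeq, counted UMIs with Cell Ranger, aggregated the libraries and normalised with Seurat, and the submitters' processing notes name mm10. The deposited table, although its label calls it raw counts, gives for each gene and cell the natural log of 1 plus the UMIs per 10000 of the cell. UMIs were recovered as the exponential minus 1 over each cell's smallest nonzero value, which gave whole numbers (tolerance 0.01) for 100% of nonzero values in 5022 of 5022 cells. The lowest cell had 2928 UMIs.

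Cells were clustered with Seurat 5.3.0 in R 4.3.3 (13 principal components, resolution 0.8) on 595 variable genes, and T cells again on 399, both without the 8 genes. Classes were named from marker lists, and T clusters needed at least 2 CD3 UMIs in 90% of cells, a limit set after seeing the data. No doublet caller was run. CPM carry exact Poisson intervals, shares exact Clopper-Pearson intervals and log2 ratios exact conditional binomial intervals (Python 3.11.15, scipy 1.17.1). No p-value was computed. The fold limit was 1.5 at 100 UMIs or more, and expected pairs needed 5 cells. Genes most like a member had at least 500 UMIs in T cells of each library. The calculations were tested on simulated data. The named genes were the 8 members, Maoa, list genes past the fold in T cells, ligands of the receptors, the 3 genes most like each member and class markers. The members and gene lists were chosen with earlier results of these data known. Gene positions are from GENCODE M21.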

Additional observations from a re-analysis of the deposited data

Results flagged for a closer look

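Cd244 was flagged because its log2 ratio of the library labelled KO to that labelled WT lay above 0 in TAM/Mono cells, at 0.25 (0.06 to 0.44), and below 0 in T cells, at -0.34 (-0.69 to -0.00), with counting intervals on either side of 0. With 1 library per genotype, the difference between both classes was not tested. Within the monocyte-like cluster Cd244 was at 119 and 99.6 CPM, and at the same mix of T cell clusters its ratio in T cells was 0.04.

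The unnamed cycling cluster entered none of the comparisons of the report and was counted with T cells only as an alternative. Pdcd1 stood there at 114 CPM in 30 cells of the library labelled WT and at 85.8 CPM in 42 cells of that labelled KO, above the level that a count of 0 allows.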

How the results depend on the processing

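No paired analysis was possible because each genotype had 1 library. Pdcd1 and Havcr2 in T cells kept the sign of their ratio under each alternative run, whereas Lag3 and Cd244 in T cells, which were not called, went to 0.04 at 1 mix of T cell clusters, and Cd244 also to 0.04 by the gate described next. The call of 2 of the 8 genes lower in T cells went to 4 with T cells taken by a gate on CD3 and myeloid UMIs (where 7.08% of all genes were lower) and to 4 without possible doublets (7.66%), to 6 with cells weighted equally (10.9%), and to 0 with both libraries at 1 mix of T cell clusters (3.82%). The median log2 ratio of the 8 genes was -0.82 with cells weighted equally and -0.093 at 1 mix of clusters.

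The share of T cells with 3 or more genes (27.8% and 14.8%, labelled WT and labelled KO) was 24.005% and 11.7% by the gate and 24.8% and 11.9% without possible doublets. It was 16.2% and 7.83% at 2000 UMIs and 61.6% and 27.4% with no thinning. At 5000 UMIs it was 54.6% and 35.7%, but only of cells with at least 5000 UMIs, and the median T cell labelled KO had 4795.5. The share was 31.5% and 16.03% in Cd8a-high clusters. Shares with 2 or more genes were 50.2% and 26.5%, and with 4 or more 10.2% and 4.78%. The library labelled WT had the higher share in each of these. With no thinning its T cells were also the deeper ones, with a median of 9741 against 4795.5 UMIs. The median observed over expected of pairs in the library labelled KO (1.99) was 1.65 by the gate and 1.61 at 5000 UMIs, and 2.25 without possible doublets, 2.20 at 2000 UMIs and 2.29 with no thinning. The median odds ratio within clusters, an alternative chosen after seeing the data, was 1.21 and 1.41.

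In the pathway list, 0 genes were lower and 2 higher at 2-fold (2.02% and 1.12% of all genes), 2 were lower with a minimum of 50 UMIs (8.18%), and 3 were higher with 300 (3.09%). Of the 24 places for genes most like a member (3 for each, some genes filling several), 15 had a gene that was also among the 3 of that member in Cd8a-high clusters. Counting the unnamed cluster with T cells or leaving out cluster 9, both chosen after seeing the data and run for ratios, shares and pairs only, kept 2 genes called lower. Of the 8 genes, Tigit, Cd244 and Entpd1 had the fewest UMIs in T cells, where depth limits them.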
